A study of Mus musculus with 6 samples.

Results

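Genes for the assembly of elastic fibres were examined in whole lungs of ob/ob mice, which lack functional leptin, after treatment with leptin or with saline. The set was defined by name as Eln, Fbn1, Fbln1, Fbln2, Fbln5, Lox, Loxl1, Mfap2, Mfap4 and Mfap5, and each gene was read from every probe set that the array's annotation assigns to that single symbol. Of the 10 genes, 9 have such a probe set, 14 probe sets in all, among 12393 genes with a probe set of 1 symbol. For Fbn1, fibrillin-1, the annotation used here names none, so it was not analysed here. Eln, Fbln1, Lox and Mfap5 have more than 1 probe set.

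All 6 animals were females of the strain B6.V-Lepob/J, homozygous for the ob mutation of the leptin gene, at an age of 1 month, with 1 animal and 1 lung sample per array. The leptin group and the saline group had 3 arrays each, so the groups share genotype, sex and age and differ in the agent given. The sources used here give no dose, route or duration, and no lean or untreated group was analysed here. Total RNA was amplified from an oligo(dT) primer and hybridised to the Affymetrix Mouse 430A array, on which each probe set reports the brightness of a group of short oligonucleotides.

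Elastic fibres let the lung stretch and recoil. Cells secrete tropoelastin, which is laid onto a scaffold of fibrillin microfibrils with the help of fibulins, and is then cross-linked by lysyl oxidases into insoluble elastin. In the mouse lung most of this is built after birth, when fibroblasts and myofibroblasts lay down elastin at the tips of the growing alveolar septa, and smooth muscle cells of airways and vessels make it as well.

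The array of saline replicate 1 was kept apart. Its log2 values correlated with those of the other arrays at 0.438 to 0.447 (Pearson's r over probe sets, not independent replicates), against 0.973 to 0.978 among the other 5. Beta-actin at its 3' end gave 1643.2 there against 18526.6 to 19541.2 elsewhere. The ratio of 3' to 5' beta-actin signal was 5.83 against 1.09 to 1.25. The same ratio for Gapdh went the other way, at 0.395 against 0.955 to 1.25. Spiked-in controls exceeded the other arrays by a median of 22.6-fold. Lung markers departed on saline replicate 1 as well. The surfactant gene Sftpc read 23964.4 to 29731.9 on the other 5 arrays and 4087.1 on saline replicate 1. Napsa, a further alveolar type II marker, read 5691.0 to 6130.7 on the other 5 and 124.6 on saline replicate 1, below that array's median of 323.8. Scgb1a1, a club cell marker, was higher there, at 68879.7 against 18472.6 to 22287.7. Below, the comparison of 3 leptin arrays with saline replicates 2 and 3 comes first, and that with all 6 arrays follows.

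Without saline replicate 1, Mfap4 and the dimmer of 2 Fbln1 probe sets showed the largest differences of the 13 tested probe sets. Their fitted values were 1.51-fold and 1.46-fold higher with leptin on the log2(intensity + 22.0) scale used throughout, and the brighter Fbln1 probe set was 1.24-fold higher. Elastin itself and Mfap2 differed by 0.02 or less on the log2 scale on their brighter or only probe set. No probe set of the 9 genes passed the adjusted threshold of 0.05 (limma with Benjamini-Hochberg adjustment over all 15838 probe sets tested), where 0.0442% of all tested probe sets did. At an unadjusted p under 0.05, 3 of the 13 tested elastic fibre probe sets were higher with leptin, 1 each of Mfap4, Fbln1 and Fbln5, against a background of 2.61%, and 0 were lower, against 1.98%. With the replicate number as a block, 2 were higher (Mfap4 and the dimmer Fbln1) and 1, the second Lox probe set, was lower. The 14th, the dimmest of Lox, lay below the filter on low intensity.

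**Figure D1:**
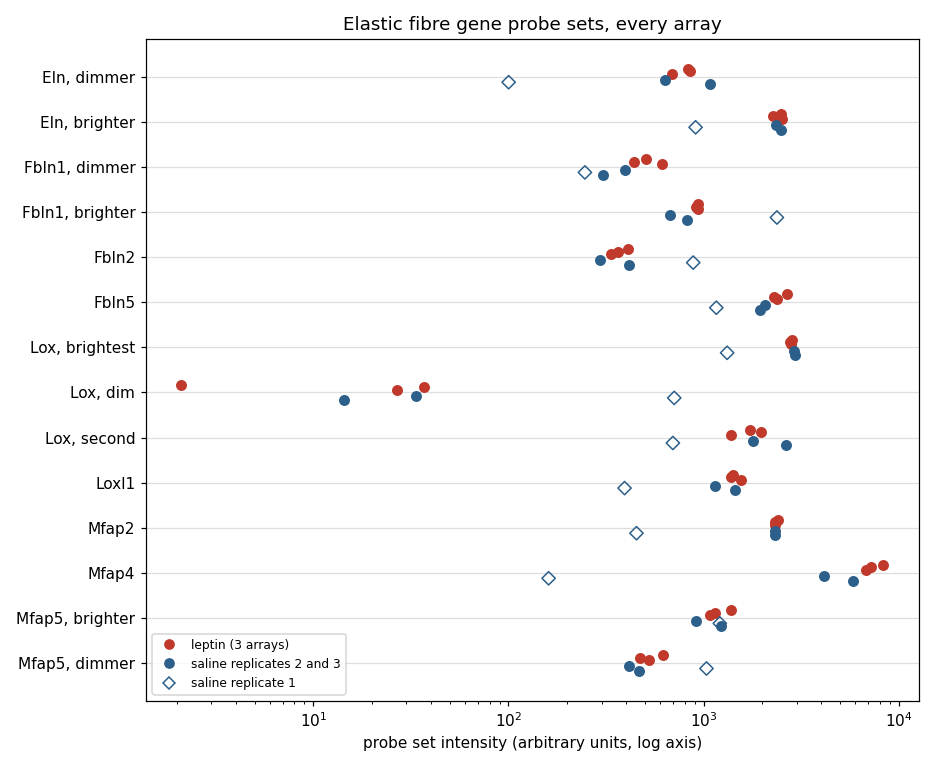
Intensity of each of the 14 probe sets (arbitrary units, log axis) on every array. Red points are the 3 leptin arrays, filled blue points saline replicates 2 and 3, and open diamonds saline replicate 1. Mfap4 reads 6765.8 to 8345.6 with leptin, above 5807.6 and 4145.2 on saline replicates 2 and 3, while saline replicate 1 lies at 160.6.

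Eln encodes tropoelastin, the soluble monomer of elastin. Its brighter probe set read 2492.0, 2266.1 and 2533.7 with leptin against 2506.1 and 2337.9 with saline. The groups overlapped fully, and the log2 difference was 0.00 ± 0.12 (SE), with a 95% interval from -0.27 to 0.27, or from 0.832-fold to 1.21-fold. The dimmer one gave 830.6, 850.0 and 687.5 with leptin against 1075.3 and 634.6 with saline. Both saline values lay outside the leptin range, one on each side, and the difference was -0.07 ± 0.21 with an interval from -0.53 to 0.39. The probe sets of other genes most like the brighter Eln probe set over these 5 arrays belonged to Hsp90aa1, Arl3, Aifm1, G3bp2 and Cops2. Their root mean square difference from it was 0.0143 to 0.0224 log2 units after centring, where Eln itself varied by 0.0629. These are the smallest differences among all tested probe sets of other genes, and shared regulation with Eln was not tested.

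The microfibril-associated proteins sit on the fibrillin scaffold. Mfap4, a secreted fibrinogen-related protein that binds elastin and fibrillin-1 (Entrez Gene 76293), read 8345.6, 7209.4 and 6765.8 with leptin and 5807.6 and 4145.2 with saline. Every leptin array was above both saline arrays, at 7440 ± 815 (SD, n = 3) against 4976 ± 1175 (SD, n = 2), and 3 of the 6 pairs of a leptin and a saline array differed by at least 1.5-fold. The log2 difference was 0.59 ± 0.15, with an interval from 0.25 to 0.93, but the limma adjusted p was 0.644. The gap between the 2 saline arrays, 0.48 on the log2 scale, was nearly as wide as this difference. The difference was 0.35 without saline replicate 3 (adjusted p = 1.00) and 0.83 without saline replicate 2 (adjusted p = 0.222).

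Mfap2, also called MAGP-1, binds fibrillin and is a constant component of microfibrils. It read 2406.0, 2317.7 and 2324.7 with leptin and 2322.7 and 2322.2 with saline, and the difference of 0.02 ± 0.12 had an interval from -0.24 to 0.27. Leptin replicate 1 alone stood slightly above the other arrays, which were nearly equal.

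Mfap5, or MAGP-2, is its paralog and also interacts with fibrillins. Its brighter probe set gave 1381.4, 1140.0 and 1082.4 with leptin against 1224.5 and 913.6 with saline, an overlap, with a difference of 0.17 ± 0.17. Its dimmer one read 620.6, 471.8 and 523.6 against 463.9 and 413.7. Here each leptin array was above both saline arrays, although leptin replicate 2 was only 1.02-fold above saline replicate 2, and the difference was 0.28 ± 0.17 (limma adjusted p = 1.00). It was 0.17 without leptin replicate 1. The brighter one was at 0.38 without saline replicate 2, at -0.03 without saline replicate 3 and at 0.07 without leptin replicate 1. With all 5 arrays the 2 probe sets of Mfap5 had the same sign.

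Fibulins bridge elastin and the microfibrils. Fbln5 binds tropoelastin and lysyl oxidase-like 1 and is needed for elastic fibres in mice. It read 2687.7, 2303.0 and 2375.7 with leptin and 1955.6 and 2064.2 with saline. The groups did not overlap, and the means of 2455 ± 204 (SD, n = 3) and 2010 ± 76.8 (SD, n = 2) gave a log2 difference of 0.28 ± 0.13 with an interval from 0.00 to 0.56. The unadjusted limma p was just under 0.05, and the adjusted p was 1.00. With the replicate block the difference was 0.22, no longer at an unadjusted p under 0.05 (limma adjusted p = 0.707). Nor was it at that level with a common median of the arrays (0.27) or with no trend in the fit (0.28). Its lowest leptin value exceeded the higher saline value by 1.12-fold.

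Fbln1, which binds elastin, fibronectin and basement membrane proteins, had 2 probe sets. The dimmer one read 508.5, 437.9 and 611.8 with leptin and 303.4 and 393.9 with saline, a difference of 0.55 ± 0.19 with an interval from 0.13 to 0.96 and a limma adjusted p of 1.00. The brighter one read 935.7, 910.7 and 940.7 against 825.6 and 670.9, a difference of 0.31 ± 0.14 with an interval from -0.01 to 0.63, which was 0.46 without saline replicate 2 and 0.17 without saline replicate 3. On both, all 3 leptin arrays were above both saline arrays. The leptin arrays lay within 0.05 log2 units of each other on the brighter probe set and within 0.46 on the dimmer one.

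Fbln2, which binds tropoelastin and fibrillin-1 and overlaps in role with fibulin-5 in vessel walls, read 407.5, 363.1 and 333.7 with leptin and 413.5 and 292.8 with saline. The saline arrays enclosed all 3 leptin values, and the difference was 0.07 ± 0.19. Its interval, from -0.34 to 0.48, includes the difference measured for Fbln5.

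The start regions of Fbln1 and Fbln5 are shown because these were the fibulins with all leptin arrays above both saline arrays. The sequences are from RefSeq on build GRCm38.p6 and run from 250 bases before to 50 after a transcript start, 5′ to 3′ on the gene's strand. The capitals mark CAGAC and its reverse complement GTCTG, a short motif bound by SMAD proteins, the transcription factors of TGF-beta signalling, which is known to raise elastin and fibulin-5 in fibroblasts. Fbln1 lies on the plus strand at chr15:85205699-85205998 and Fbln5 on the minus strand at chr12:101819070-101819369, and each has a further start in the table that is not shown.
Fbln1: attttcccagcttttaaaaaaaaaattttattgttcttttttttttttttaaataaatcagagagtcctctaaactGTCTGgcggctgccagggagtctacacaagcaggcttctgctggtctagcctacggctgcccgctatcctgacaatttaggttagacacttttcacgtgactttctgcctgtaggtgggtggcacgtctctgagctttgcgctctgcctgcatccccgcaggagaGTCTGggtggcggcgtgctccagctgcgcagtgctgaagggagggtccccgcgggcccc
Fbln5: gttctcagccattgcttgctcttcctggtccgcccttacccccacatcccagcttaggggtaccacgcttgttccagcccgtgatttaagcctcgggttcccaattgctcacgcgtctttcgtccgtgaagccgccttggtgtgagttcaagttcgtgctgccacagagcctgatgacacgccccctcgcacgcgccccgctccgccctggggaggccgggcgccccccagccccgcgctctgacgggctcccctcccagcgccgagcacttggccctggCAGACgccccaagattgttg
The Fbln1 window holds 2 matches, both as GTCTG, and the Fbln5 window 1, as CAGAC. Of the other genes examined, Fbln2 and Mfap2 have an entry of the same length, and neither holds the motif. Since 49.7% of the 27025 genes with such a window hold it on either strand, the matches are a description of these letters only. Fbln1 and Fbln5 windows had a GC content of 51.7% and 65.7%, where the median of all genes was 52.7%.

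Lysyl oxidases oxidise lysine residues so that tropoelastin and collagen chains become cross-linked. Lox, the founding enzyme of the family, is measured by 2 bright probe sets and 1 dim one. The brightest read 2823.7, 2785.8 and 2812.9 with leptin and 2937.5 and 2911.8 with saline. The leptin arrays were all below both saline arrays, but by little, with a difference of -0.06 ± 0.11 and an interval from -0.31 to 0.19. The second read 1732.4, 1963.9 and 1389.1 with leptin and 2640.8 and 1792.5 with saline, a difference of -0.37 ± 0.19 (limma adjusted p = 1.00). With the replicate block it was at -0.39, lower at an unadjusted p under 0.05 (limma adjusted p = 0.624). There leptin replicate 2 lay above saline replicate 3, so the groups overlapped, and the difference was -0.09 without saline replicate 2 and -0.65 without saline replicate 3. The dim one gave 2.1, 37.1 and 26.7 with leptin against 14.3 and 33.7 with saline, near the 10th percentile of intensity, and gives no usable difference.

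Loxl1, which Fbln5 brings to the elastic fibre, read 1407.4, 1389.0 and 1561.0 with leptin and 1442.7 and 1145.8 with saline. Saline replicate 2 fell among the leptin values, and the difference was 0.17 ± 0.14 with an interval from -0.15 to 0.49. It rested on the saline arrays, at 0.01 without saline replicate 3 and 0.33 without saline replicate 2. Both lysyl oxidases thus had intervals that include 0, Lox with negative values on its bright probe sets and Loxl1 with a positive one; the difference between the genes was not tested.

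**Figure D2:**
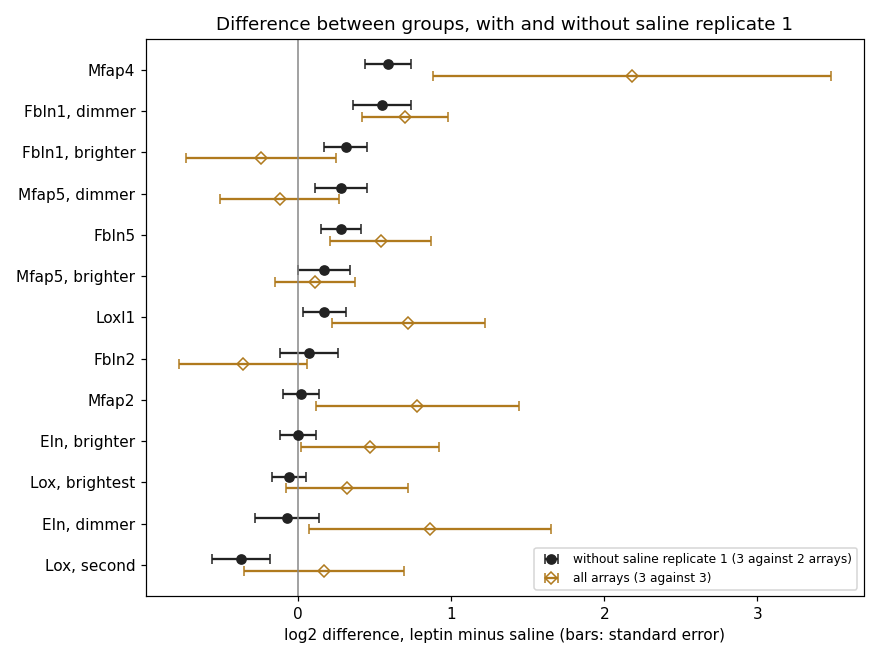
Log2 difference between leptin and saline arrays for the 13 tested probe sets (points, with bars of 1 standard error), ordered by the value without saline replicate 1. Filled circles leave out saline replicate 1 and open diamonds include it. Mfap4 goes from 0.59 to 2.18 when saline replicate 1 is included, and its standard error from 0.15 to 1.30.

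Over the 13 tested probe sets the log2 difference was above 0 in 10, against 50.3% of all tested probe sets, with a median of 0.17 against 0.00 over all. Both figures leaned on single arrays. Without saline replicate 3 the median was 0.01 and 7 of 13 were above 0, and without leptin replicate 1 it was 0.07 with 7 above 0. With the replicate number as a block, the median was also 0.07 and 7 were above 0. This is no second check, because leptin replicate 1 then has no partner and does not enter the difference. Leptin arrays lay wholly above saline replicates 2 and 3 for 5 probe sets, those of Mfap4, Fbln1 (both), Fbln5 and Mfap5 (dimmer), where 9.92% of all tested probe sets did. They lay wholly below for 1, the brightest of Lox, against 9.66%. The count of 3 at an unadjusted p under 0.05 became 1 without leptin replicate 3, where Mfap4 was left, and 1 without saline replicate 3, where the dimmer Fbln1 was left. The second Lox probe set was lower at that level without saline replicate 3 and without leptin replicate 2, at -0.65 and -0.48, so that 1 probe set was lower in each. The rule stated by the series (at least 1.5-fold, p under 0.05 and a majority of pairwise comparisons) was met by 0 of the 13, against 0.492% of all.

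Between the 2 saline arrays, 11 of the 13 tested probe sets read higher on saline replicate 2 than on saline replicate 3, as did 53.9% of all tested probe sets. The widest gaps were in the dimmer Eln probe set (0.74 log2 units), the second Lox probe set (0.55), Mfap4 (0.48) and Fbln2 (0.47). Except for Mfap4, where the groups differed by 0.59, these gaps were wider than the difference between the groups. The dimmer Fbln1 probe set and Fbln5 went the other way, at -0.35 and -0.08. Mfap2 and the brightest Lox probe set at 0.00 and 0.01 were nearly equal on both arrays.

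On saline replicate 1 the 14 probe sets departed in both directions. It read lower than each of the other 5 arrays for 9 of them, where 33.8% of all probe sets did, higher for 4, where 54.6% did, and within their range for 1, the brighter of Mfap5. Mfap4 read 160.6 there, 25.8-fold below the lowest of the other arrays, and stood at percentile 32.5 of its array against 97.5 to 99.3 elsewhere. The dimmer Eln probe set read 100.2, or 6.33-fold below the lowest, and Mfap2 read 452.9, or 5.12-fold below. The brighter Eln probe set, Lox, Loxl1 and Fbln5 were lower by factors of 1.68 to 2.91 against the lowest of the other arrays.

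Higher values on that array were read for the brighter Fbln1 probe set at 2375.5, Fbln2 at 884.6 and the dimmer Mfap5 probe set at 1034.6, which were 2.53, 2.14 and 1.67 times the highest of the other arrays. The dim Lox probe set read 707.1 there, 19.1 times the highest value elsewhere. The 2 Fbln1 probe sets therefore stood on opposite sides, since the dimmer one read 246.5, below all other arrays. Lox was split in the same manner, with its bright probe sets at 1320.5 and 696.0, below all others.

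**Figure D3:**
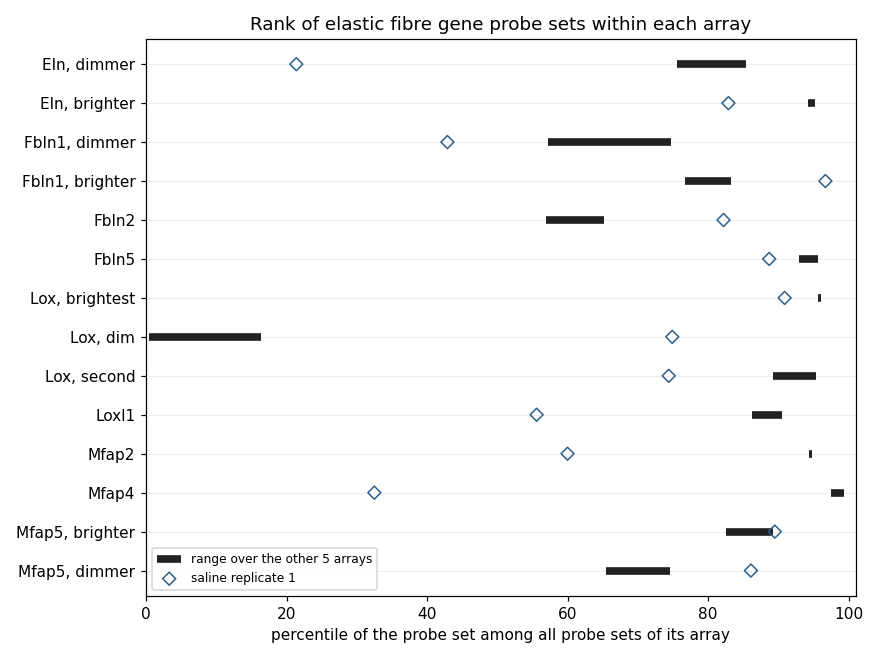
Percentile of each probe set among all probe sets of its own array. Black bars span the other 5 arrays and open diamonds mark saline replicate 1. Mfap4 stands at 32.5 on saline replicate 1 against 97.5 to 99.3, and the dim Lox probe set at 74.9 against 0.464 to 16.3.

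With all 6 arrays, the comparison as the series designed it, 10 of 13 tested probe sets were again above 0, against 51.3% of all, with a median of 0.47 against 0.02. The same number did not mean the same probe sets: the dimmer Eln probe set and both bright Lox probe sets turned positive, at 0.86 ± 0.79, 0.32 ± 0.40 and 0.17 ± 0.52, while the brighter Fbln1 (-0.24 ± 0.49), Fbln2 (-0.36 ± 0.42) and the dimmer Mfap5 (-0.12 ± 0.39) turned negative. Mfap4 was at 2.18 ± 1.30 with an interval from -0.95 to 5.31, Mfap2 at 0.78 ± 0.66, Loxl1 at 0.72 ± 0.50, Fbln5 at 0.54 ± 0.33 and the brighter Eln probe set at 0.47 ± 0.45. None passed the adjusted threshold in limma, with adjusted p from 0.715 to 0.871, and 0% of all probe sets did.

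The dimmer Fbln1 probe set was the one elastic fibre probe set at an unadjusted p under 0.05 on all 6 arrays, against 0.202% of all probe sets that were higher with leptin at that level. It was at 0.70 ± 0.28 with an interval from 0.01 to 1.38 and a limma adjusted p of 0.715, and the leptin arrays lay above all 3 saline arrays in 9 of 9 pairs, 6 of them by at least 1.5-fold. It also met the rule of the series, as did 0.202% of all tested probe sets. Without saline replicate 1 it did not meet the rule, with 3 of 6 pairs at 1.5-fold or more. Besides it, Mfap4 and Fbln5 had all leptin arrays above all 3 saline arrays, so that 3 of 13 probe sets were without overlap and higher, against 5% of all. That these 3 were also without overlap when saline replicate 1 was left out follows from this and is no second check. For each of them saline replicate 1 was the lowest of the saline arrays.

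Other genes of the elastic fibre were read from lists of names, each gene by its brightest tested probe set, without saline replicate 1. Of 27 further fibre genes (fibrillin-2, the latent TGF-beta binding proteins, other fibulins, emilins, lysyl oxidases and processing enzymes), 16 were tested, 10 above 0 and 6 below, with a median of 0.07, and 0 were at an unadjusted p under 0.05. The smallest p-values were those of Glb1, whose splice product chaperones tropoelastin, at 0.32 ± 0.16 and of Ltbp2, a microfibril protein that binds fibulin-5, at 0.28 ± 0.14, both with a limma adjusted p of 1.00. Of 12 proteases that include the main elastases of neutrophils and macrophages, 7 were tested, 3 above and 4 below 0, with a median of -0.01. Elane, the neutrophil elastase, and Mmp12, the macrophage elastase, were among those below the filter. Mmp2, a gelatinase that also cleaves elastin, was at 0.49 ± 0.14 (limma adjusted p = 0.834), the one of them at an unadjusted p under 0.05, and Ctsl, a lysosomal protease, was at -0.09 ± 0.13. Of 14 protease inhibitors 9 were tested, 6 above and 3 below 0, with a median of 0.05. Slpi, an inhibitor of neutrophil elastase, was at -0.38 ± 0.17 (limma adjusted p = 1.00), the one inhibitor at that level, and Timp3, a matrix-bound metalloproteinase inhibitor, was at -0.17 ± 0.12.

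Of 18 regulators and receptors of elastic fibre formation, 15 were tested, 8 above and 7 below 0, with a median of 0.05. Pdgfa, the growth factor that alveolar myofibroblasts need to form, read 637.3, 784.4 and 980.5 with leptin and 444.3 and 624.1 with saline, a difference of 0.56 ± 0.20 (limma adjusted p = 1.00). It was the one regulator at an unadjusted p under 0.05. All leptin values were above both saline values, and saline replicate 1 read 2645.6. Tgfb1, the ligand of the TGF-beta pathway, followed with the next smallest p, at 0.17 ± 0.17. No probe set of these 4 lists passed the adjusted threshold. Over all tested probe sets, 2.61% were higher and 1.98% lower at an unadjusted p under 0.05.

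In whole lung, more cells of a type and more RNA per cell cannot be told apart, so markers of the cells that make elastic fibres were read in the same fit. Of 11 fibroblast markers 10 have a probe set, and 8 of the 10 were above 0, 5 of them at an unadjusted p under 0.05, with a median of 0.18. Those 5 were the collagens Col1a1, Col1a2 and Col3a1 and the matrix genes Lum and Dpt, at 0.26 to 0.71. The rest lay nearer 0 or below it, with Dcn at 0.10, Pdgfra at 0.09, Pi16 at 0.06, Tcf21 at -0.05 and Inmt at -0.15. The summed intensity of all 10 fibroblast markers was 45672 to 48847 with leptin against 40823 and 44358 with saline. All 7 smooth muscle markers were above 0, with a median of 0.25, and 2, Myh11 and Cnn1, were at an unadjusted p under 0.05. Their summed intensity was 9310 to 11233 with leptin and 8382 and 8614 with saline. Over all tested probe sets, 2.61% were higher at that level. None of the fibroblast or smooth muscle markers passed the adjusted threshold or was listed at 0, and for both lists the sums did not overlap. Of single probe sets, 9.92% of all tested had every leptin array above saline replicates 2 and 3. The part of these markers in the differences of Mfap4, Fbln1 and Fbln5 was not tested.

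As a share of the fibroblast marker sum of the same array, a ratio chosen after the values were seen, Mfap4 stood at 18.3%, 14.8% and 14.7% with leptin and 13.1% and 10.2% with saline. The groups still did not overlap, and the log2 difference of this ratio was 0.46. A single marker, Inmt, a methyltransferase abundant in lung, made up 37.4% to 39.4% of this sum with leptin and 46.2% and 47% with saline, and was at -0.15 ± 0.10, whereas the collagens of the list were at 0.53 to 0.71. With Inmt left out of the sum, Mfap4 stood at 29.2%, 24.4% and 23.6% with leptin and 24.3% and 19.1% with saline, so the groups overlapped, and the difference was 0.25. As a share of that smaller sum the dimmer Fbln1 was at 0.22 and Fbln5 at -0.06, both with an overlap. As a share of the smooth muscle sum Mfap4 was at 89.6%, 74.2% and 60.2% against 69.3% and 48.1%, an overlap, with a difference of 0.35. In that sum Acta2 alone read 4758.3 to 5672.4 with leptin, of 9310 to 11233, and 4284.5 and 4520.1 with saline, of 8382 and 8614. The ratio without Acta2 was not computed. The dimmer Fbln1 probe set was at 0.44 and 0.33 relative to the full sums and overlapped on both. Fbln5 was at 0.15 and 0.04, and also overlapped on both.

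**Figure D4:**
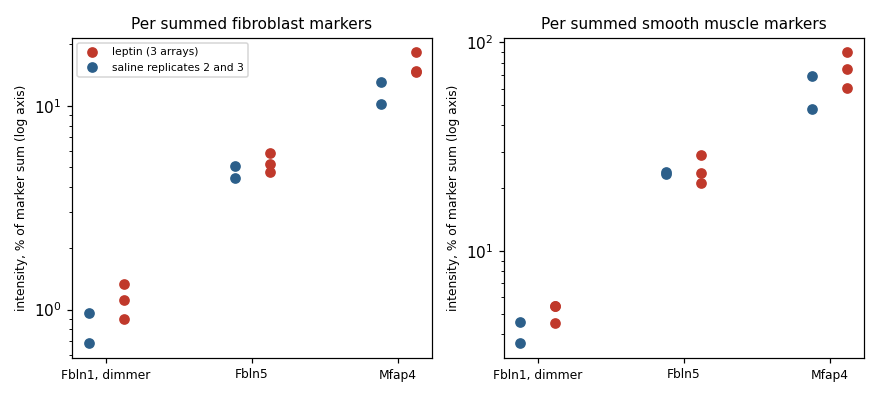
Intensity of 3 probe sets as a percentage of the summed fibroblast markers (left) or smooth muscle markers (right) of the same array, on log axes. Red points are the 3 leptin arrays and blue points saline replicates 2 and 3. Of the 6 ratios, that of Mfap4 to the fibroblast sum is the one without overlap, at 14.7% to 18.3% against 10.2% and 13.1%, and it overlaps once Inmt is left out of that sum (not plotted).

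Markers of other cell types the lung sample could hold did not all go the same way. Median differences were -0.07 for alveolar type II cells, -0.02 for alveolar type I cells, -0.08 for club cells, 0.13 for ciliated cells, 0.09 for endothelium, 0.12 for adipocytes, -0.04 for skeletal and cardiac muscle and 0.22 for leukocytes. Mesothelial markers, of cells that line the pleura, were below 0 in 3 of 3, with a median of -0.20, and Msln was at -0.39 ± 0.14. Of these lists, 1 gene each of type II cells (Sftpb, -0.22 ± 0.10), endothelium (Kdr, 0.35 ± 0.16) and adipocytes (Adipoq, 0.38 ± 0.16) was also at an unadjusted p under 0.05. The shares over all tested probe sets were 2.61% higher and 1.98% lower.

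Erythroid markers were below 0 in 3 of 3, with a median of -0.79, and their summed intensity was 3486 to 4687 with leptin against 10274 and 8154 with saline. Alas2, the first enzyme of heme synthesis in red cell precursors, read 3628.8, 3874.2 and 2846.1 with leptin and 8448.6 and 7325.4 with saline. It fell by 1.20 ± 0.15 on the log2 scale and was the one marker past the adjusted threshold (limma adjusted p = 0.0496). It was not past it without leptin replicate 1 (-1.24, adjusted p = 0.223), without saline replicate 2 (-1.09, adjusted p = 0.152), without saline replicate 3 (-1.30, adjusted p = 0.0821) or with the replicate block (-1.24, adjusted p = 0.0941), and with all 6 arrays it was at 1.12 ± 1.86. Slc4a1, the anion exchanger of red cells, was at -0.70 ± 0.25 (limma adjusted p = 1.00). The part of red cell RNA in the differences of the elastic fibre genes was not tested.

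Cartilage markers, which would mark airway or tracheal cartilage in the sample, summed to 600 to 783 on the 5 arrays and to 3368 on saline replicate 1. Of the latter, 1525.9 came from Col9a1. Col2a1, the defining collagen of cartilage, was at 6.8 to 14.1 on the 5 arrays and at 282.8 on saline replicate 1. Acan was lower there, at 63.7 against 80.5 to 155.9, and Matn1 was within the range of the others. Of all probe sets, 54.6% read higher on saline replicate 1 than on each other array. Whether that sample held cartilage was not tested. On the 5 arrays the median difference was 0.16 over 3 tested cartilage genes.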

How the data were processed

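Per the labels' protocols, Trizol RNA was amplified from a T7-oligo(dT) primer and hybridised with spiked-in controls. The authors deposited one linear intensity per probe set and array; the sources used here name neither the software nor how probes were summarised. A mean trimmed by 2% at each end was 500.10 to 500.14 on every array, so arrays had been scaled to a common level. With arrays, their number limits the precision. The labels do not say whether replicate numbers mark separate cages or litters.

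After 64 control probe sets were left out, 22626 remained, 20380 with 1 symbol. Values were transformed to log2(intensity + 22.0), where 22.0 is the 10th percentile over all arrays; changes of dim probe sets are understated on this scale. Probe sets in the lowest 30% of mean log2 value were dropped, and limma 3.58.1 (R 4.3.3; lmFit, then eBayes with trend, two-sided, Benjamini-Hochberg) was run on the 15838 left. A negative difference is lower with leptin. The p-values measure the spread between these animals. Intervals are 95% intervals from the fit. The fits were tested on simulated data.

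The genes, lists, tests and naming rule were chosen with earlier results of these data known. All probe sets of the 9 genes are named; of each further list, those past the adjusted threshold, otherwise the 2 genes with the smallest p. Which markers to name, those with p under 0.05, the other fibroblast markers and some defining ones, was chosen after their values were seen. The likeness to Eln is the root mean square difference of centred log2 values. Marker sums take each gene's brightest probe set.

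Same-numbered arrays deviated from their group means together (r = 0.103 to 0.144 across probe sets, against -0.147 to 0.0491 for other pairs). The labels state no pairing, and these correlations do not establish one, with the highest, 0.144, involving saline replicate 1. The replicate block was run only as an alternative. In it 0 of all probe sets passed the adjusted threshold, against 7 without it. On the 5 arrays leptin replicate 1 has no partner in the block, so the block differences equal those without that array. The other alternatives were quantile normalization, a common median, other pseudocounts and filters, no trend, array weights and leaving out each array.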

Additional observations from a re-analysis of the deposited data

How the results depend on the processing

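No elastic fibre probe set passed the adjusted threshold under any of the alternatives run, over 195 combinations of probe set and alternative in each fit. Mfap4, both Fbln1 probe sets, Fbln5, Loxl1 and the dimmer Mfap5 stayed above 0 under all alternatives on the 5 arrays. Both bright Lox probe sets stayed below 0 under the same alternatives. With all 6 arrays, the brighter Fbln1 and the dimmer Mfap5 turned to -0.24 and -0.12. In that comparison the dimmer Eln probe set turned to 0.86, Fbln2 to -0.36 and the bright Lox probe sets to 0.32 and 0.17, the median of the 13 moved to 0.47 and the count at an unadjusted p under 0.05, all higher, to 1. On the 5 arrays, values near 0 changed sign: the brighter Eln probe set was at -0.01 with a common median and with the replicate block and at -0.0023 with array weights, Mfap2 at -0.00028 with a common median and at -0.00077 with the replicate block, and Fbln2 at -0.00061 with that block. With the replicate block 2 probe sets were higher and 1 lower at an unadjusted p under 0.05 there, and 0 either way with all 6 arrays. On the 5 arrays 2 were higher at that level with a common median, 2 with no trend and 4 with no filter. The number above 0 was 8 of 13 with a common median and 9 with array weights. The block moved no call of an elastic fibre gene at the adjusted threshold.

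Leaving out 1 of the 5 arrays gave 1 to 3 probe sets higher and 0 to 1 lower at an unadjusted p under 0.05, medians of 0.01 to 0.31, and values from -0.44 to 0.30 for the dimmer Eln, -0.05 to 0.05 for the brighter Eln, -0.16 to 0.31 for Fbln2, -0.00077 to 0.03 for Mfap2 -0.03 to 0.38 for the brighter and 0.17 to 0.36 for the dimmer Mfap5, 0.17 to 0.46 for the brighter Fbln1 and 0.01 to 0.33 for Loxl1. Without leptin replicate 1, the brighter Eln, Fbln2 and Mfap2 were at -0.01, -0.00061 and -0.00077. These are the replicate block values again, since that block leaves this array without a partner. Without leptin replicate 3 the dimmer and brighter Eln were at 0.02 and -0.03.

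With all 6 arrays, the count at an unadjusted p under 0.05 was 0 with quantile normalization, a common median, no filter, the replicate block and no trend, 2 with array weights and 0 to 3 when 1 array was left out. The dimmer Mfap5 probe set turned to 0.03 with a common median. Array weights (0.0257 for saline replicate 1) turned Eln to -0.13 and -0.01, the brighter Fbln1 to 0.27, Fbln2 to 0.01, Lox to -0.05 and -0.41 and the dimmer Mfap5 to 0.24, close to the values without that array, and the brighter Mfap5 was at -0.03 without saline replicate 3. When 1 of the 6 arrays was left out, the dimmer and brighter Eln ranged from -0.07 to 1.51 and from 0.0042 to 0.72, the brighter Fbln1 from -0.58 to 0.31, Fbln2 from -0.69 to 0.07, Lox from -0.06 to 0.51 and from -0.37 to 0.58, and Mfap5 from -0.03 to 0.18 and from -0.36 to 0.28. For Fbln5, the difference relative to marker sums, chosen after seeing the data, was 0.15 and 0.04, and for Mfap4 it was 0.46 and 0.35; with Inmt left out of the fibroblast sum, Fbln5 turned to -0.06 and Mfap4 was at 0.25. Alas2 had an adjusted p of 0.034 to 0.353 over the other settings on the 5 arrays. The cause of these shifts was not tested. Dim probe sets limit the data: the dimmest of Lox was read at 2.1 to 37.1, around the 10th percentile of intensity.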
